A study of Caenorhabditis elegans with 16 samples.

Results

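AUA is a class of head interneurons of the nematode Caenorhabditis elegans, and 840 cells carried this class name among 151415 single cells sorted from larvae. The cells were chosen by the authors' deposited annotation, as those with the class AUA and the tissue neuron, and no measured value was used to add or remove a cell. They stood among 89073 annotated neurons, and 87959 other neurons of a named class served as their background. The 16 libraries were made with droplet capture, in which each captured transcript is counted through a unique molecular identifier (UMI), from hermaphrodites sorted by fluorescent reporters, mostly in the first larval stage. Nearly all AUA cells came from 3 libraries of live cells with the genotype label wt. Replicates 1 and 2 of a pan-neuronal sort held 289 and 287 AUA cells, from strain OH10689 with the transgene otIs355[rab-3(prom-1)::2xNLS-tagRFP], 11.5 to 14.5 h after hatching. A sort on a reporter of the glutamate transporter gene eat-4 held 219, from strain OH9625 with otIs292 [eat-4::mCherry + rol-6(su1006)], 12 to 15 h after hatching. A sort of unc-86-expressing neurons at 12 to 15 h, carrying kyIs262 with unc-86::myr-GFP and odr-1::RFP, held 9 and entered the fit against the class URX below. Its AUA cells also count among those of the other libraries and in the alternatives with at least 5 AUA cells. In the strains of the pan-neuronal, eat-4 and unc-86 sorts a promoter drives the fluorophore. Such a sort enriches for cells in which that promoter is active and can hold others. The eat-4 sort also held 8355 non-neuronal cells, and an eat-4 UMI was found in 27.7% of them. Values from the 3 main libraries are given in the order pan-neuronal replicate 1, pan-neuronal replicate 2, eat-4 sort.

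AUA neurons form a left and right pair whose processes run with those of the amphid, the main chemosensory organ of the head, but end without a sensory cilium. They receive synapses from the oxygen-sensing URX neurons and belong to the circuit through which oxygen and the neuropeptide receptor NPR-1 act on feeding in groups. Neuropeptides are made as precursor proteins, cut and amidated in the secretory pathway, and act on G-protein-coupled receptors of other neurons, often at a distance from any synapse. The FLP family carries the FMRFamide-like ending, the NLP family groups other peptides, and a further family resembles insulin.

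Levels are given as CPM, the UMIs of a gene scaled to 1000000 UMIs over all genes other than unc-54 and rol-6, and this choice was made after these 2 genes were seen to differ between libraries. The muscle myosin gene unc-54 took 14.4% and 30.6% of the UMIs of AUA cells in the pan-neuronal libraries and 8.89% and 19.4% of those of other neurons there. In the eat-4 sort it took 0.000762% and 0.00328%. The collagen gene rol-6, which the eat-4 strain carries as a co-injected marker, took 1.2% of AUA UMIs in that sort and 0.491% in its other neurons. The other 7 muscle markers summed to 890, 2274 and 1387 CPM in AUA cells against 1187, 2290 and 1350 in other neurons. Of these 7 markers 5, 4 and 2 were at 0 in AUA cells, with myo-3 and tnt-2 at 0 in all 3 libraries. All 7 remaining epidermal markers were at 0, and 8, 7 and 6 of 8 intestinal and 7, 8 and 6 of 8 glial markers were. AUA cells of the 3 libraries held 87993, 234341 and 131307 UMIs, with medians of 273, 787 and 594 per cell against 224, 577 and 538 in other neurons. The AUA profiles of the 3 libraries were compared across 18568 genes, which are not independent replicates, and Pearson's r was 0.906, 0.858 and 0.9 for the 3 pairs. Libraries shared 2756 cell barcodes of 148627, 32 AUA cells had a barcode that also occurred in another library, and no barcode was shared by AUA cells of different libraries.

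Heat-shock genes, chosen after their values were seen, set the AUA cells of the eat-4 sort apart from those of the pan-neuronal sort. The small heat-shock gene hsp-16.11 had 0, 6.15 and 7570 CPM in AUA cells, and hsp-16.2 had 39.8, 67.6 and 6390. The Hsp70-family genes F44E5.4 and F44E5.5 followed the same pattern. The other neurons of the eat-4 sort also had 8947 and 4369 CPM of hsp-16.11 and hsp-16.2, so this was a feature of the library. Strain and age window cannot be told apart here, and each fit below set the cells of a library against other cells of the same library.

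AUA cells made up 4.65% of the neurons of pan-neuronal replicate 1 (exact 95% Clopper-Pearson interval 4.14 to 5.21) and 4.53% of those of replicate 2 (4.03 to 5.07), a mean of 4.59% ± 0.0872 (SD, n = 2). In the eat-4 sort the share was 2.45% (2.14 to 2.79). AUA thus ranked 5 among classes by number of cells in both pan-neuronal libraries and 13 in the eat-4 sort. Over all cells the intervals of the pan-neuronal replicates overlapped, and the eat-4 sort lay below both. Intervals here and below cover counting error only, and the sort sets these shares. Among cells with at least 500 UMIs the shares were 2.54%, 6.99% and 2.8%, and the intervals of the pan-neuronal replicates, 1.58 to 3.86 and 6.21 to 7.85, no longer overlapped, while that of the eat-4 sort, 2.35 to 3.3, lay within that of replicate 1. A further 45 AUA cells were spread over 10 other libraries. None was found in the methanol-fixed library, where 3 cells, the limit that a count of 0 allows, would be 0.202% and the exact interval reaches 0.248%. None was found in the P-lineage libraries of 21 to 24 h either, where these limits are 0.0606% and 0.0524%, with exact intervals up to 0.0745% and 0.0644%.

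**Figure D1:**
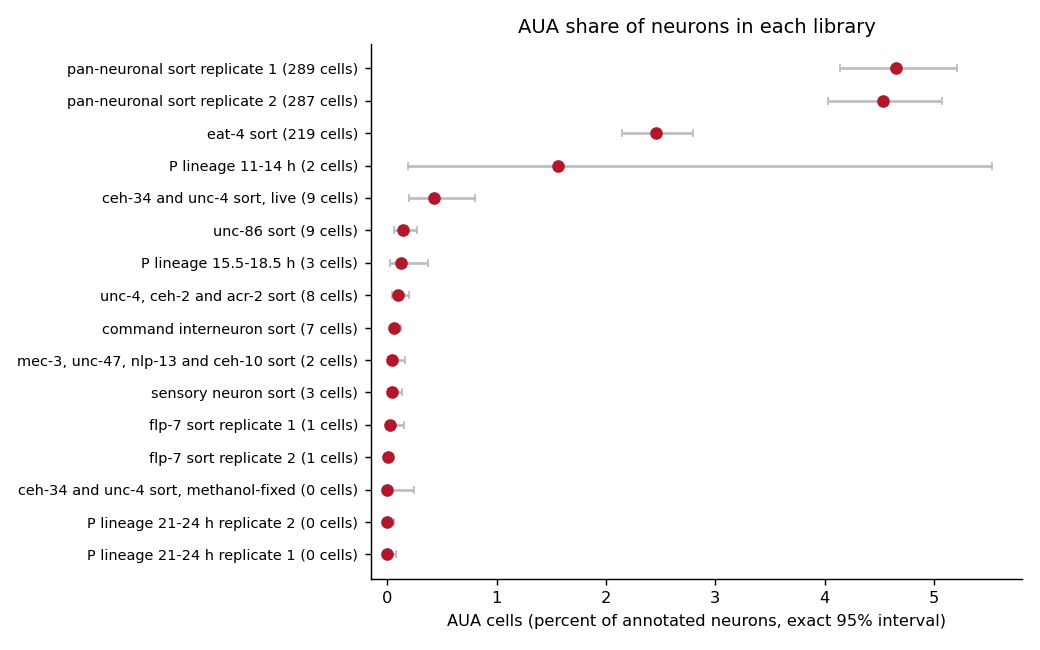
Share of annotated neurons that were AUA cells in each of the 16 libraries, in percent, with exact 95% Clopper-Pearson intervals as bars. The pan-neuronal replicates stand at 4.65% and 4.53% and the eat-4 sort at 2.45%.

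The neuropeptide gene flp-8, the first of the pair of genes used as markers of AUA, was high in all 3 libraries and is given first. It reached 56370, 38410 and 43250 CPM in AUA cells, against 615, 395 and 212 in other neurons of the same libraries. Every AUA value lay above every value of other neurons, and the log2 fold change was 6.78 (SE 0.25, adjusted p = 2.905e-14; edgeR's quasi-likelihood test on summed UMIs with library as a block, Benjamini-Hochberg adjustment over all genes tested). AUA cells held 81.9%, 82.5% and 82% of all flp-8 UMIs of neurons in these libraries. Among classes with at least 10 cells in a library, AUA ranked first of 67, 73 and 50. The class next in order differed by library, with PVQ at 3259, IL2_LR at 2892 and PVR at 1207 CPM, and 40, 47 and 24 of the classes had no flp-8 UMI at all. Of 8 markers of URX, another class that uses flp-8, 7, 5 and 2 were at 0 in AUA cells, and the list includes flp-10, which AUA also expressed. URX itself had more flp-8 than AUA, at 204500 and 124900 CPM in the pan-neuronal libraries, but with 6 cells in each it was not among the classes ranked.

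Within single cells flp-8 was present in nearly all AUA neurons and varied widely in its share. At least 1 flp-8 UMI was found in 99%, 98.3% and 98.6% of AUA cells, against 0.844%, 0.959% and 0.827% of other neurons. In non-neuronal cells of the eat-4 sort, which should lack the gene, the share was 0.144% at a median of 1463 UMIs per cell, where AUA cells had a median of 584 without unc-54 and rol-6. Thinned to 200 UMIs per cell, with 101, 4 and 5 shallower AUA cells left out, the AUA shares were 98.9%, 97.5% and 98.1%. The median AUA cell spent 5.58%, 3.61% and 3.96% of its UMIs on flp-8, and the highest cells 14.3%, 11.6% and 10.9%. The gene was absent from 3, 5 and 3 AUA cells.

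The second marker, the POU homeobox gene ceh-6, had 518, 1635 and 748 CPM in AUA cells and 12.4, 47.7 and 16.3 in other neurons. The groups did not overlap, with a log2 fold change of 5.18 (SE 0.28, adjusted p = 3.134e-12). AUA ranked second in each library behind the head motor neurons RMD_DV, at 914, 2327 and 1032, and the 95% Poisson intervals of both classes overlapped each time. The third class was AVH in the pan-neuronal libraries, at 222 and 816, and the pharyngeal neuron I5 in the eat-4 sort, at 173. At least 1 ceh-6 UMI was found in 11.4%, 48.8% and 28.8% of AUA cells, and in 9.57%, 25.4% and 14.9% after thinning to 200 UMIs. In thinned other neurons the shares were 0.202%, 0.863% and 0.332%, and in thinned non-neuronal cells of the eat-4 sort 0%. Both markers were thus present in cells labelled AUA, and neither was particular to them on its own.

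**Figure D2:**
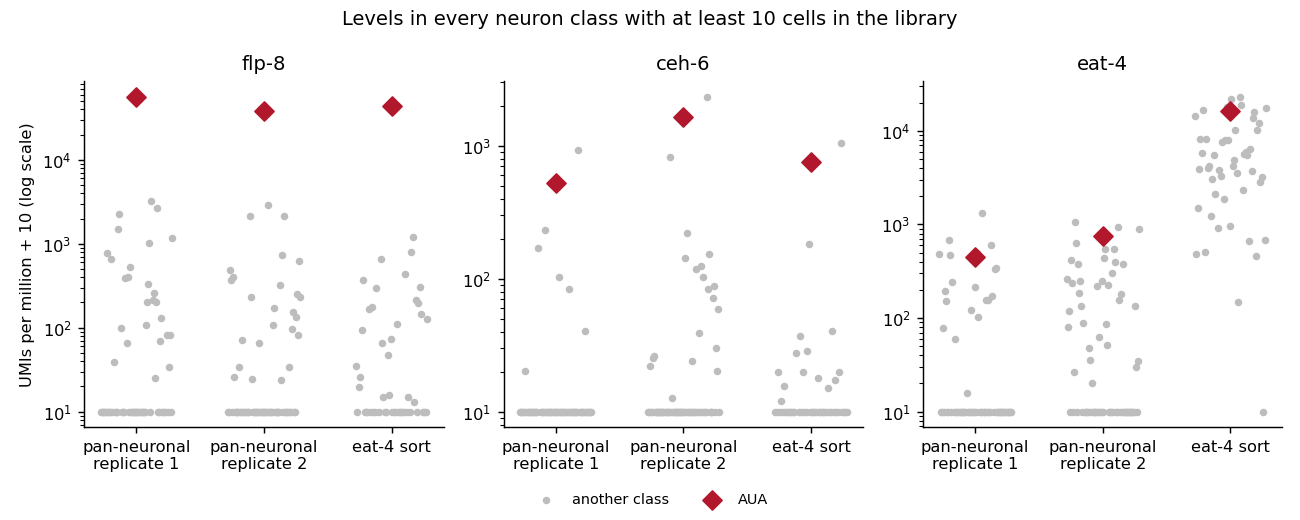
Levels of flp-8, ceh-6 and eat-4 in every neuron class with at least 10 cells in the library, in CPM plus 10 on a log scale, with AUA as red diamonds. For flp-8 AUA stands above all other classes shown in each library, which do not include URX with its 6 cells; for ceh-6 only RMD_DV lies above it; for eat-4 it lies among the upper classes.

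AUA neurons are classed as glutamatergic, and eat-4, which encodes the vesicular transporter that loads glutamate, was read next. Its levels were 438, 744 and 16200 CPM in AUA cells and 110, 188 and 7384 in other neurons. AUA was higher in all 3 libraries, with a log2 fold change of 1.53 (SE 0.22, adjusted p = 8.707e-06), and ranked 7, 4 and 7 among classes. The eat-4 sort was made on a reporter of this gene and its levels lay far above those of the pan-neuronal sort on both sides. The genes ZK512.7 and ZK512.10, chosen after their values were seen, had no UMI on either side in the pan-neuronal sort. In the eat-4 sort they had 2929 and 1249 CPM in AUA cells against 1271 and 531 in other neurons. How many eat-4 UMIs of that sort came from the reporter transgene was not tested. The call was lost against glutamatergic classes alone (log2 fold change 0.64), among cells with at least 500 UMIs (1.17, adjusted p = 0.1106) and without the library block (1.03, adjusted p = 0.748).

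Genes for other transmitters were lower in AUA cells or too sparse to test. All 4 tested acetylcholine genes of 6 were lower, among them unc-17, the vesicular acetylcholine transporter, at 13.3, 36.9 and 7.71 CPM against 139, 230 and 20.6, and the choline transporter cho-1 at 0, 30.7 and 7.71 against 102.1, 151 and 38. The 3 tested GABA genes of 5 were lower, including unc-25, the enzyme that makes GABA, at 0, 73.7 and 0 against 260, 604 and 22.8. Against glutamatergic classes the unc-25 difference was 0.12 on the log2 scale with the opposite sign (adjusted p = 0.9139). The 5 tested monoamine genes of 9 were lower too, such as tdc-1, the enzyme that makes tyramine, at 0, 73.7 and 84.8 against 102.1, 201 and 455, and the vesicular monoamine transporter cat-1 at 13.3, 24.6 and 7.71 against 87.1, 91.5 and 68.4. The serotonin enzyme gene tph-1 had no UMI in AUA cells and was at least 2.15-fold lower. With libraries of at least 5 AUA cells, which adds other sorts, tdc-1 (-0.57, adjusted p = 0.4636) and cat-1 (-1.09, adjusted p = 0.08504) were not called. Without the library block unc-17 (-2.75, adjusted p = 0.06622), unc-25 (-3.43, adjusted p = 0.08298) and tdc-1 (-2.28, adjusted p = 0.06278) were not called either. Calls for cha-1, ace-3, unc-46, gta-1, tph-1 and dat-1 rested on few UMIs and were lost without pan-neuronal replicate 2 (adjusted p from 0.05042 for gta-1 to 0.5664 for dat-1).

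Across all genes, 346 of 5370 tested (6.44%) were higher in AUA cells than in the other neurons of the same 3 libraries and 1240 (23.1%) were lower, at an adjusted p under 0.05 and a change of 1 or more on the log2 scale. These shares are the background for each count of a gene list against other neurons. The median over all tested genes was -0.19 on the log2 scale. No source used here gives how cells were assigned to classes, and class names may rest on the same counts; the p-values measure the spread between these libraries alone. On simulated counts this fit recovered 49.5% of changed genes and 72.5% of those changed 4-fold. Leaving out a library gave between 199 and 384 genes higher and between 861 and 1473 lower. The low end of both came without pan-neuronal replicate 2, where 193 of the 199 were among the 346.

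**Figure D3:**
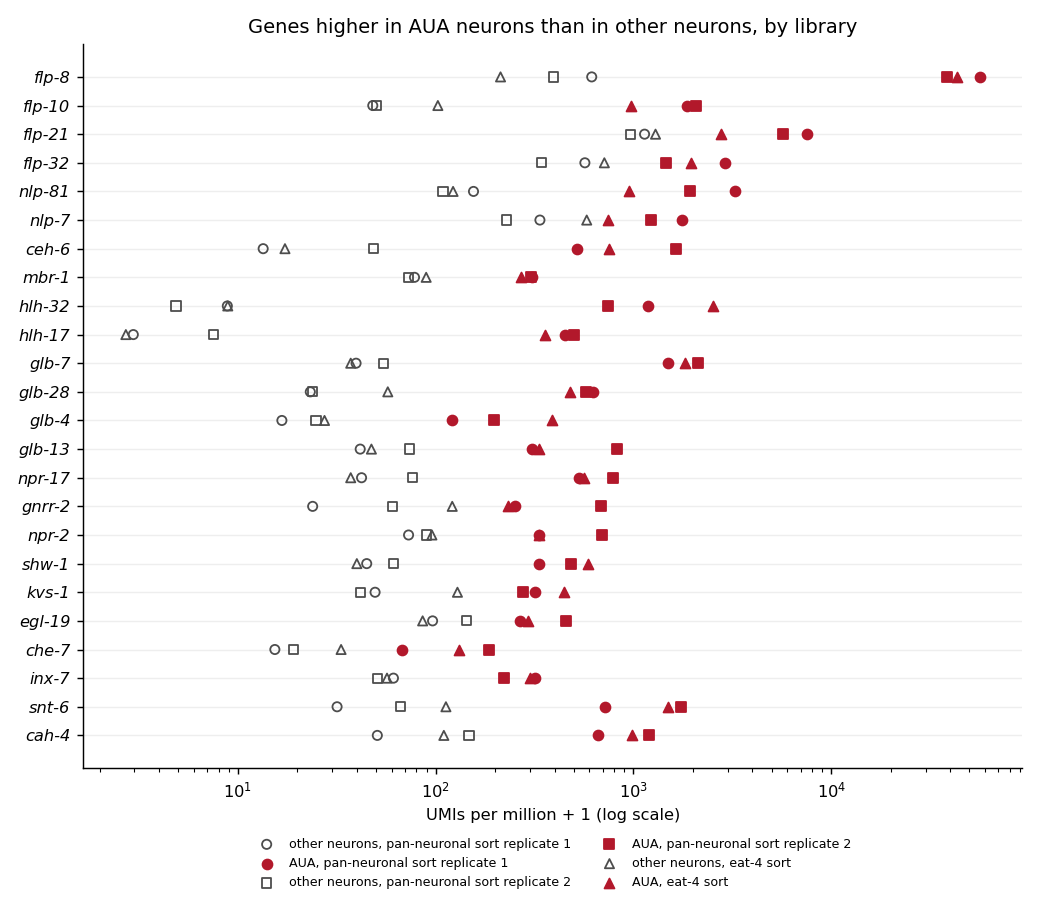
CPM plus 1 (log scale) of 24 named genes in AUA cells (red) and other neurons (open) of pan-neuronal replicate 1 (circles), replicate 2 (squares) and the eat-4 sort (triangles). For flp-8, ceh-6 and hlh-32 the 3 AUA points lie far above the open points, and for genes such as nlp-7 the groups come close.

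Neuropeptide genes separated AUA cells from other neurons in both directions. Of 30 FLP genes, all tested, 4 were higher and 22 lower, with a median log2 fold change of -3.98, or -3.86 with genes absent from a side set at the bound that 3 UMIs allow. With flp-8 included, FLP genes together took 8.23%, 5.55% and 5.42% of AUA UMIs against 8.02%, 5.52% and 2.98% in other neurons. The groups were thus close in the pan-neuronal libraries and apart in the eat-4 sort. Of 59 tested NLP genes of 74, 3 were higher and 49 lower, and the family took 4.03%, 2.66% and 2.11% of AUA UMIs against 8.55%, 7.02% and 4.02%. All 16 tested insulin-like genes of 38 were lower, and the family took 0.0173%, 0.016% and 0.017% against 0.85%, 0.582% and 0.32%. All 7 PDF and other peptide genes were lower as well.

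The FLP genes higher in AUA besides flp-8 were flp-10, flp-21 and flp-32. The level of flp-10 was 1859, 2077 and 971 CPM against 47.1, 49.2 and 101.7 (log2 fold change 4.51, SE 0.35, adjusted p = 1.406e-09). Among classes AUA followed the carbon dioxide-sensing BAG neurons in the pan-neuronal libraries and PVR and BAG in the eat-4 sort. BAG markers did not accompany it: all 5 were at 0 in AUA cells of both pan-neuronal libraries, and in the eat-4 sort they summed to 293 CPM against 5061 in other neurons.

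Ligands of NPR-1 are encoded by flp-21 and flp-18. AUA cells had 7569, 5721 and 2783 CPM of flp-21 against 1138, 968 and 1293. The groups did not overlap (log2 fold change 2.00, SE 0.26, adjusted p = 2.3e-06). A UMI of flp-21 was found in 79.2%, 92% and 69.9% of AUA cells against 5.27%, 7.11% and 8.8% of other neurons and 0.251% of non-neuronal cells of the eat-4 sort. The gene flp-18 was lower, at 266, 43 and 15.4 against 1382, 1290 and 955 (-4.09, SE 0.40, adjusted p = 3.689e-08). For flp-32 the values were 2895, 1456 and 1958 against 568, 341 and 712 (1.82, SE 0.22, adjusted p = 1.114e-06). AUA ranked 3 for flp-32 in all 3 libraries, behind the pharyngeal neuron I5 and the octopamine neuron RIC, and its intervals lay below theirs.

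Of the NLP genes, nlp-81 stood highest in fold, with 3266, 1923 and 948 CPM against 155, 108 and 121.6 (log2 fold change 3.70, SE 0.27, adjusted p = 6.447e-10). The level of nlp-7 was 1753, 1223 and 740 against 336, 226 and 580 (1.61, SE 0.32, adjusted p = 0.0003488), with the groups close in the eat-4 sort, and its call was lost among cells with at least 500 UMIs (0.92, adjusted p = 0.155). The call of nlp-47 was lost without pan-neuronal replicate 1 (0.77, adjusted p = 0.07236) and without replicate 2 (0.81, adjusted p = 0.131).

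The gene nlp-18 was not called against the sum of other neurons, yet nearly every AUA cell carried it. AUA levels were 26690, 17050 and 14680 CPM against 14430, 12810 and 14840 (log2 fold change 0.28, SE 0.18, adjusted p = 0.267). A UMI was present in 94.8%, 97.9% and 95.4% of AUA cells against 15.3%, 18.5% and 25.2% of other neurons and 2.49% of non-neuronal cells of the eat-4 sort. After thinning to 200 UMIs these were 94.7%, 94% and 87.8% against 18.4%, 15.2% and 20%. AUA ranked 3, 4 and 3 among classes for nlp-18.

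Peptide genes lower in AUA included some with a high summed level in other neurons. The gene flp-1 had no UMI in AUA cells against 11760, 10160 and 32.8 CPM in other neurons, at least 848-fold lower by the limit of 3 UMIs set against the UMIs expected at the level of other neurons in the same libraries. The gene nlp-50 was at 120, 24.6 and 15.4 against 7848, 6709 and 2841 (log2 fold change -7.21, SE 0.33, adjusted p = 3.173e-13), and flp-22 at 92.9, 104.5 and 38.5 against 5496, 3879 and 1173 (-5.50, SE 0.28, adjusted p = 1.928e-12). In all 3 libraries these genes lay below the other neurons. The peptide gene pdf-2 had 3 UMIs in AUA cells, a ratio of 243 (counting interval 83 to 1176). The gene nlp-64 was lower against all other neurons (-2.82, SE 0.32, adjusted p = 4.454e-07) but was 1.08 with the opposite sign against glutamatergic classes (adjusted p = 0.05508).

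Of 59 tested peptide receptor genes of 94, 7 were higher in AUA and 36 lower. The receptor gene npr-17 had 531, 787 and 563 CPM against 41.3, 75.4 and 36.2 (log2 fold change 3.53, SE 0.26, adjusted p = 8.246e-10). The gonadotropin-releasing hormone receptor relative gnrr-2 had 252, 688 and 231 against 22.9, 59.6 and 120 (2.48, SE 0.40, adjusted p = 4.049e-05), and npr-2 had 332, 694 and 332 against 72, 89.2 and 94.8 (2.22, SE 0.29, adjusted p = 2.518e-06). For these receptors the AUA values lay above other neurons in each library. The NPR-1 receptor gene npr-1 itself was sparse, at 53.1, 73.7 and 131 against 41.2, 42.3 and 31.9 (1.08, SE 0.40, adjusted p = 0.0421), and its call was lost without any of the 3 libraries (adjusted p from 0.05044 to 0.5046). The list of oxygen and gas circuit genes, which also holds flp-21 and npr-1, had 2 of 17 tested members higher and 8 lower.

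Globins, heme proteins some of which shape oxygen responses in this animal, were a second family with high members in AUA. Of 29 tested genes of 34, 7 were higher and 17 lower. The level of glb-7 was 1500, 2120 and 1827 CPM against 38.6, 53.7 and 36.2 (log2 fold change 5.27, SE 0.25, adjusted p = 5.781e-13). In the order of classes AUA stood beside PVP for glb-7, which had 1558, 1801 and 2464, and the intervals of the pair overlapped in each library. The level of glb-28 was 624, 578 and 478 against 22.3, 23 and 56.3 (3.98, SE 0.33, adjusted p = 3.291e-09). Those of glb-4 and glb-13 were 120, 197 and 385 against 15.7, 23.9 and 26.4, and 305, 830 and 331 against 40.6, 72.8 and 46.4. All globins together took 0.408%, 0.728% and 0.521% of AUA UMIs against 0.256%, 0.35% and 0.4% in other neurons. AUA was above in each library, with the groups closest in the eat-4 sort.

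Genes of sensory endings were low, in cells whose processes end without a cilium. Of 30 tested cilium genes, 26 were lower and 1 higher, and 15 had no UMI on a side; the median log2 fold change was -7.17, or -2.75 with such genes at their bound. Cilium genes took 0.0226%, 0.0148% and 0.0162% of AUA UMIs against 0.103%, 0.116% and 0.266%. The BBSome gene bbs-5, for example, had no UMI in AUA cells and was at least 11.7-fold lower, and the dynein heavy chain gene che-3 at least 7.2-fold lower. The exception was dyf-7, which anchors dendrite tips, at 106, 67.6 and 0 against 11.8, 11.6 and 14.6, and its call was lost without either pan-neuronal replicate (adjusted p = 0.2565 and 0.4083). Of 14 tested guanylyl cyclases, 11 were lower and none was higher. The URX-type soluble cyclases gcy-32, gcy-36 and gcy-37 had 1 AUA UMI each, all in the eat-4 sort, with a ratio for gcy-37 of 112 (20.1 to 4417). Of 1009 chemoreceptor genes 23 were tested, with 4 higher and 14 lower. The members srx-123 and srx-124 were at 53.1, 67.6 and 170, and 26.6, 49.2 and 61.7, against at most 1.89 in other neurons; such near-identical relatives may share reads, so each is uncertain on its own.

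Transcription factor genes were found on both sides. Of 17 tested genes of a list of other neuronal transcription factors, hlh-17, mbr-1 and egl-13 were higher and 10 lower. Of 25 tested ceh homeobox genes, ceh-6 was higher and 11 were lower, and of 21 tested genes on a separate homeobox list 16 were lower and none higher. The POU gene unc-86, a selector of many sensory neurons, was at 0, 24.6 and 7.71 CPM against 306, 478 and 438 (log2 fold change -5.13, SE 0.46, adjusted p = 1.222e-08). The gene mbr-1, needed for neurite pruning in another interneuron, was at 305, 301 and 270 against 77.3, 71.9 and 88.6 (1.74, SE 0.27, adjusted p = 2.923e-05). The HMG-box gene egl-13 was called higher, but not without pan-neuronal replicate 2 (0.77, adjusted p = 0.2408).

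The basic helix-loop-helix genes hlh-32 and hlh-17, members of the Olig family, were high in AUA. The level of hlh-32 was 1182, 744 and 2521 CPM against 7.86, 3.88 and 7.9 (log2 fold change 7.66, SE 0.32, adjusted p = 8.623e-14). That of hlh-17 was 452, 498 and 355 against 1.96, 6.56 and 1.72 (6.88, SE 0.37, adjusted p = 3.252e-12). AUA ranked first for both in the 3 libraries, among classes with at least 10 cells. Outside these libraries the ventral cord motor neuron VB02 had more, between 7363 and 29800 for hlh-32 and between 8694 and 19100 for hlh-17 over 4 libraries, with flp-8 between 0 and 16.1. These were the unc-4, ceh-2 and acr-2 sort of 13 to 17 h and P-lineage libraries of 15.5 to 18.5 h and 21 to 24 h. Sort and age thus differ from those of the AUA values, and the difference was not tested. The genes hlh-32 and hlh-17 are near-identical paralogs, and no source used here gives how the authors' counting divided their reads: the level of each is uncertain.

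Channel, junction and surface genes also differed in both directions. Of 27 tested voltage-gated channel genes, 4 were higher and 8 lower, where 6.44% and 23.1% of all genes tested were. The Shaw-type potassium channel gene shw-1 had 332, 486 and 586 CPM against 43.9, 60.5 and 39 (log2 fold change 3.17, SE 0.29, adjusted p = 1.396e-08), kvs-1, another potassium channel gene, 319, 277 and 447 against 48.5, 40.9 and 128 (2.24, SE 0.29, adjusted p = 2.145e-06), and egl-19, the L-type calcium channel, 266, 455 and 293 against 95.6, 143 and 85 (1.52, SE 0.26, adjusted p = 9.223e-05). None of these groups overlapped, but with libraries of at least 5 AUA cells egl-19 was not called (0.41, adjusted p = 0.5149). The fourth was the inward rectifier gene irk-3. Of innexins, which form gap junctions, che-7 (66.4, 184 and 131 against 14.4, 18.2 and 32.3) and inx-7 (319, 221 and 301 against 60.2, 49.8 and 55.8) were higher, while inx-1 was lower (log2 fold change -2.08, SE 0.41, adjusted p = 0.0003315). The 9 tested twk potassium channel genes had 6 lower members and no higher one, and the 13 tested lgc ligand-gated channel genes had 9 lower.

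Of 37 tested adhesion and guidance genes, 6 were higher and 18 lower. The immunoglobulin-domain gene zig-8 had 478, 989 and 655 CPM against 172, 252 and 115.8 (log2 fold change 1.86, SE 0.26, adjusted p = 5.817e-06), and oig-1 had 319, 283 and 355 against 102.8, 90.3 and 101. The flamingo-type cadherin gene fmi-1 had 903, 805 and 324 against 330, 299 and 96.4, and its call was lost without the library block (1.33, adjusted p = 0.1307) and with libraries of at least 5 AUA cells (0.16, adjusted p = 0.8132). Transmitter receptors were mostly lower or not called. Of 17 tested glutamate receptor genes 10 were lower, and the AMPA-type receptor gene glr-1 had no UMI in AUA cells, at least 3.37-fold lower, a call lost without pan-neuronal replicate 2 (adjusted p = 0.05552). The metabotropic receptor gene mgl-3 was called higher (1.06, SE 0.37, adjusted p = 0.02932), but not without either pan-neuronal replicate. Of 12 acetylcholine, 5 GABA and 18 monoamine receptor genes tested on these lists, 6, 4 and 6 were lower and none was higher. Of 5 tested genes on a separate list of nicotinic acr receptor genes, acr-20 and acr-12 were higher and acr-2 was lower. The acr-12 call was lost without pan-neuronal replicate 2 (1.34, adjusted p = 0.1339) and without the eat-4 sort (0.81, adjusted p = 0.222). The acr-2 call was lost without replicate 2 (-2.57, adjusted p = 0.2038).

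**Figure D4:**
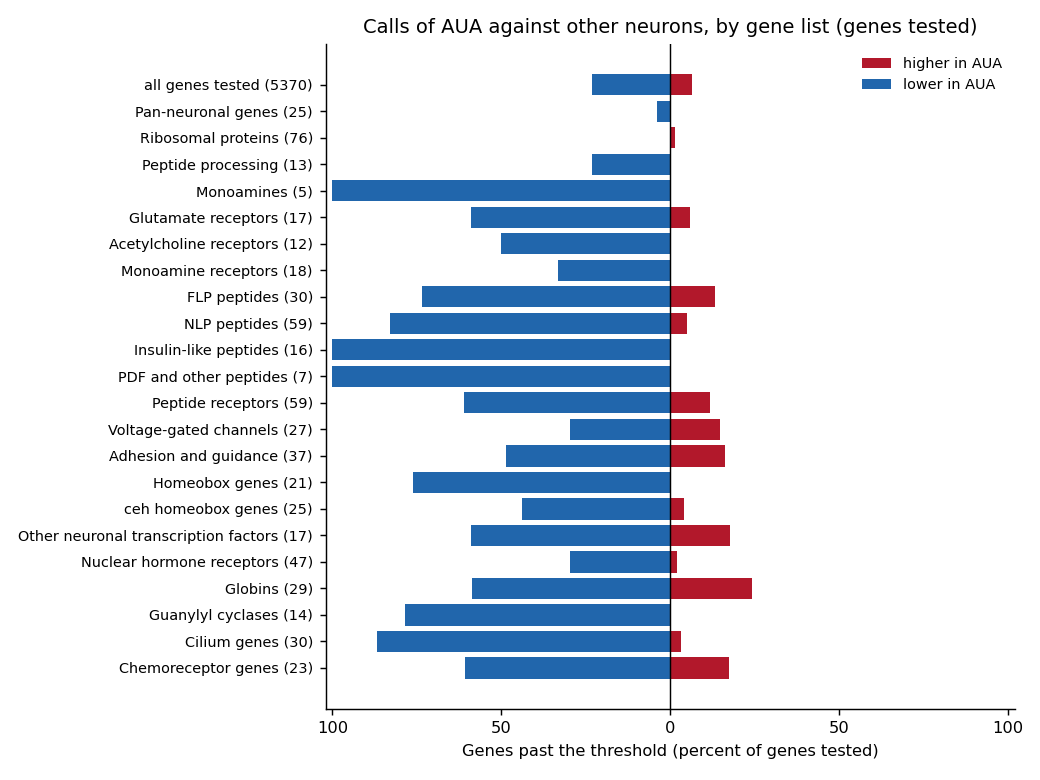
Percent of the tested genes of each list that were higher or lower in AUA cells than in other neurons. Against 6.44% higher and 23.1% lower over all genes, all 16 insulin-like genes and 26 of 30 cilium genes were lower, and 7 of 29 globins were higher.

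Genes that all neurons use were rarely called. Of 25 pan-neuronal genes, all tested, none was higher and syd-2 alone was lower, with a median log2 fold change of 0.01, and the syd-2 call was lost without the eat-4 sort (-1.36, adjusted p = 0.07003). Of 76 tested ribosomal protein genes, rpl-24.2 alone was higher, a call lost without either pan-neuronal replicate (adjusted p = 0.1677 and 0.2182), and the median was 0.33. These folds are scaled between cell groups; as shares of UMIs the pan-neuronal genes took 4.25%, 5% and 3.08% in AUA cells against 3.04%, 3.46% and 2.17%, and the ribosomal genes 17.6%, 11.7% and 14.8% against 12.4%, 8.74% and 10%. Both shares were higher in AUA in each library. A member of the synaptotagmin family, snt-6, was higher, at 717, 1745 and 1495 CPM against 30.8, 65.6 and 112 (4.18, SE 0.27, adjusted p = 7.668e-11). The carbonic anhydrase gene cah-4 had 664, 1198 and 987 against 49.8, 146 and 109. In both genes AUA lay above other neurons in each library.

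AUA was the highest class in all 3 libraries for 17 of the 346 genes called higher, among classes with at least 10 cells. Besides flp-8, hlh-32 and hlh-17 they included best-23, a member of the bestrophin channel family, at 2058, 3644 and 2629 CPM against 36, 52.8 and 40.4 (log2 fold change 5.85, SE 0.25, adjusted p = 1.233e-13). The uncharacterised gene C54C6.5 had 4807, 7534 and 5704 against 77.2, 117 and 176 (5.51, SE 0.26, adjusted p = 4.903e-13). For both genes AUA lay far above other neurons in every library. The rest were sparse, such as F10D2.8 with 68 UMIs in AUA cells and the chemoreceptor gene srx-123 with 37.

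Some genes with a high summed level in other neurons were near absent from AUA cells. Such a sum can rest on few classes. Apart from the peptide genes above, R102.2 had 13.3, 24.6 and 108 CPM against 7884, 4540 and 13320 (log2 fold change -7.60, SE 0.31, adjusted p = 8.623e-14), and mec-17, the tubulin acetyltransferase of touch receptor neurons, 0, 0 and 77.1 against 1419, 2603 and 5829 (-7.31, SE 0.43, adjusted p = 1.51e-11). B0294.1 had no UMI in AUA cells and was at least 298-fold lower, and C33A12.4 and droe-4 had 3 each, ratios of 341 (116.5 to 1651) and 333 (114 to 1613). What AUA UMIs there were of R102.2, mec-17 and C33A12.4 came mostly or only from the eat-4 sort.

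The 45 AUA cells of the 10 other libraries took no part in this fit and held 44124 UMIs. Summed, they had 46840 CPM of flp-8 against 1367 in the 55109 other neurons of those libraries, and 517 of ceh-6 against 31.4. Of the 346 genes called higher, 272 (78.6%) were above other neurons in them, and of the 1240 called lower 1078 (86.9%) were below, of which 664 had no UMI in the held-out AUA cells, against 40% above and 60% below among all genes tested. The values of flp-10 (1128 against 71.7), glb-7 (1857 against 110), npr-17 (564 against 50.1) and eat-4 (635 against 149) lay on the same side as before. Those of tdc-1, cat-1 and npr-1 lay on the other side and are given at the end of the text. Of these cells 8 had no flp-8 UMI. The class labels of these cells may also rest on these counts.

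The levels of flp-8 across 124 neuron classes were compared with those of the 1754 genes that reached 50 CPM in AUA. The most alike by Spearman's correlation of class levels were C05E7.3 (0.66), E02A10.4 (0.58), C54C6.5 (0.57), ddo-2 (0.52) and M03D4.3 (0.50), as a description of classes that share libraries and depth. In AUA cells C05E7.3 had 9189, 6735 and 2297 CPM against 292, 240 and 294 in other neurons, and E02A10.4 had 7356, 5770 and 6567 against 357, 270 and 669. Both were called higher, with log2 fold changes of 4.13 (SE 0.31, adjusted p = 1.021e-09) and 3.88 (SE 0.25, adjusted p = 5.442e-11).

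URX, the oxygen-sensing class that synapses onto AUA, also expressed flp-8 and was compared with AUA in the 3 libraries with at least 5 cells of each. These were the pan-neuronal replicates, with 6 URX cells each (2998 and 8651 UMIs), and the unc-86 sort, with 151 URX cells (247944 UMIs) and 9 AUA cells (7410 UMIs), and values follow in that order. In URX flp-8 had 204500, 124900 and 113600 CPM against 56370, 38410 and 45090 in AUA. Every URX value was above every AUA value, but the difference was not called (log2 fold change -1.68, SE 0.65, adjusted p = 0.06212). Of 603 genes tested, 54 (8.96%) were higher in AUA and 68 (11.3%) lower. Without the filter on low counts 1 was higher and 4 were lower, and on simulated counts the fit recovered 22.5% of changed genes, fewer than in the other comparisons.

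Genes of oxygen sensing separated the classes. The soluble guanylyl cyclase gene gcy-33 had 11990, 14320 and 12920 CPM in URX and none in AUA, at least 1109-fold lower by the UMIs expected at the URX level in the same libraries. The cyclase genes gcy-37, gcy-36, gcy-32 and gcy-25 were also at 0 in AUA, at least 195-fold, 98.7-fold, 44.8-fold and 69.4-fold lower. AUA UMIs lay mostly in the pan-neuronal libraries, so bounds for genes at 0 in AUA rest mostly on URX levels from 6 cells in each. The annexin gene nex-4 was at least 222-fold and the peptide gene flp-2 at least 82.6-fold lower, and unc-86 had 4 AUA UMIs against 1498, 1066 and 743 CPM (log2 fold change -6.18, SE 0.92, adjusted p = 3.202e-07). In contrast ceh-6 had no UMI in URX and was at least 69.8-fold higher in AUA, and hlh-32 at least 123-fold higher. URX UMIs lay mostly in the unc-86 sort, so the ceh-6 bound rests mostly on 6 AUA UMIs in 9 cells there. The counting error of that level is not part of the bound. Without the filter on low counts gcy-36 (-8.63, adjusted p = 0.09011), gcy-32, gcy-25, flp-2, unc-86, ceh-6 (8.33, adjusted p = 0.2022) and hlh-32 (8.90, adjusted p = 0.1695) were no longer called, with the same direction.

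The peptide genes of AUA and URX differed in each direction. Of 13 FLP genes tested 5 were higher in AUA and 4 lower, and of 7 NLP genes 2 were higher and 1 was lower. The gene nlp-18 had 26690, 17050 and 13370 CPM in AUA against 0, 762 and 12.3 in URX (log2 fold change 7.45, SE 0.82, adjusted p = 4.312e-10). Also higher were flp-10 (1859, 2077 and 945 against 0, 0 and 16.4; 5.72, SE 0.87, adjusted p = 4.718e-07), nlp-81 (5.51, SE 0.83, adjusted p = 4.417e-07) and flp-21 (7569, 5721 and 6480 against 0, 152 and 546; 4.01, SE 0.58, adjusted p = 1.993e-07). The flp-21 call was lost without pan-neuronal replicate 1 (3.75, adjusted p = 0.07051) and among cells with at least 500 UMIs (3.65, adjusted p = 0.0618). None of the peptide genes named here was called without the filter on low counts save nlp-18. Lower in AUA were flp-14 (4063, 1346 and 135 against 18730, 9139 and 14540; -3.22, SE 0.57, adjusted p = 8.631e-06), lost without the same library (-4.21, adjusted p = 0.1037), and flp-19 (890, 614 and 135 against 7116, 8073 and 3338; -3.53, SE 0.51, adjusted p = 1.624e-07). The transporter gene eat-4 had 438, 744 and 1080 in AUA and 1 UMI in all URX cells, and its call was lost without the unc-86 sort (2.83, adjusted p = 0.175). It was also lost with DESeq2 (4.54, adjusted p = 0.05931) and without the filter on low counts (5.77, adjusted p = 0.5662).

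The class most like AUA over all genes was RIC, the octopamine interneurons, with a Pearson's r of 0.857 of log2 levels over 18570 genes, ahead of RIM at 0.843 and AIB at 0.841, among 34 classes with at least 10 cells in each of the 3 main libraries. With 181, 185 and 528 RIC cells, 215 of 1311 genes tested (16.4%) were higher in AUA and 201 (15.3%) lower. The gene flp-8 was higher, at 56370, 38410 and 43250 CPM against 246, 309 and 203 in RIC (log2 fold change 7.35, SE 0.24, adjusted p = 2.486e-06). The eat-4 levels of the pair were 438, 744 and 16200 against 164, 145 and 15890 and did not pass the test (0.93, SE 0.43, adjusted p = 0.138).

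Genes of octopamine synthesis were low in AUA and high in RIC in these 3 libraries. The tyramine beta-hydroxylase gene tbh-1 had 1 UMI in AUA cells against 1722, 1844 and 2966 CPM in RIC, and tdc-1 had 0, 73.7 and 84.8 against 1169, 1574 and 1707 (log2 fold change -4.86, SE 0.44, adjusted p = 0.0001203). The transporter gene cat-1 was lower too, at 13.3, 24.6 and 7.71 against 472, 570 and 358 (-4.94, SE 0.39, adjusted p = 6.693e-05). All 3 tested monoamine genes were thus lower in AUA in these libraries. The AUA cells outside the main libraries had more tdc-1 and cat-1, with values given at the end of the text. The transcription factor gene lin-11, of the LIM homeobox family, had 13.3, 18.4 and 15.4 against 677, 647 and 590 (-5.34, SE 0.35, adjusted p = 3.86e-05), while ceh-6 had 518, 1635 and 748 against 0, 29 and 7.24 (6.08, SE 0.39, adjusted p = 3.655e-05) and hlh-32 had no RIC UMI, at least 277-fold higher in AUA. The gene mbr-1 was at similar levels, 305, 301 and 270 against 246, 251 and 115.8, and was not called (0.49, SE 0.30, adjusted p = 0.2487).

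**Figure D5:**
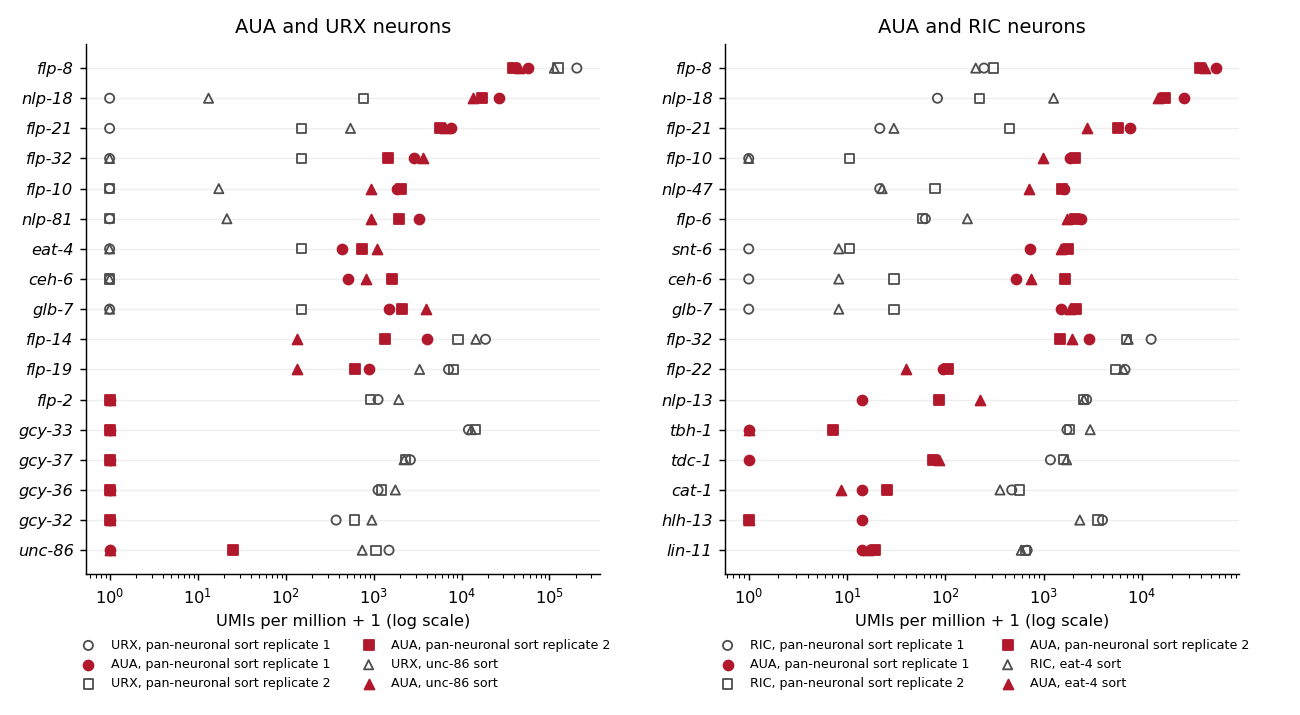
CPM plus 1 (log scale) in AUA against URX in the pan-neuronal and unc-86 libraries, and against RIC in the pan-neuronal and eat-4 libraries, for named genes. Levels of gcy-33 and gcy-37 are at 0 in AUA and high in URX, and tbh-1 and tdc-1 are high in RIC.

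Peptide genes also parted AUA from RIC. Of 16 FLP genes tested 5 were higher and 6 lower, and of 20 NLP genes 2 were higher and 10 lower. Higher in AUA were flp-21 (7569, 5721 and 2783 CPM against 20.51, 444 and 28.9; log2 fold change 5.28, SE 0.67, adjusted p = 0.0006063), flp-6 (2364, 2077 and 1742 against 61.5, 57.9 and 166; 4.12, SE 0.40, adjusted p = 0.0001576) and nlp-18 (26690, 17050 and 14680 against 82, 222 and 1259; 5.46, SE 0.79, adjusted p = 0.001181). Lower were flp-22 (92.9, 104.5 and 38.5 against 6705, 5416 and 6443; -6.42, SE 0.34, adjusted p = 1.428e-05) and flp-32 (2895, 1456 and 1958 against 12360, 6884 and 7228; -2.20, SE 0.16, adjusted p = 5.562e-05), so flp-32 was higher in AUA than in neurons at large and lower than in RIC. The gene nlp-81, high in AUA against neurons at large, was at 3266, 1923 and 948 against 2604, 1825 and 1143 and was not called (-0.09, SE 0.20, adjusted p = 0.7804). Of 12 tested globins 6 were higher in AUA and 2 lower, with glb-7 at 1500, 2120 and 1827 against 0, 29 and 7.24 (7.03, SE 0.42, adjusted p = 2.287e-05). The innexin gene inx-7 was higher as well, at 319, 221 and 301 against 41, 19.3 and 39.8 (2.87, SE 0.37, adjusted p = 0.0007273).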

How the data were processed

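Single-cell UMI counts were deposited by the authors as a matrix of 18570 genes by 151415 cells with a cell annotation. Cell Ranger 6.0.0 is named per the submitters' processing notes, without its role, and no other processing is given in the sources used here. The matrix summed to 261228334 UMIs, of which the 3 main libraries held 1798814, 4490666 and 25576635. Raw counts were read with Python 3.11.15 and summed per library over AUA cells, over other neurons of a named class, and over URX or RIC cells. Sums were tested in R 4.3.3 with edgeR 4.0.16 (TMM scaling, a filter at a count of 10, quasi-likelihood test, library as block, Benjamini-Hochberg adjustment), with a call at an adjusted p under 0.05 and a change of 1 or more on the log2 scale. SEs were taken from the fold change and the F value. The block comes from both sides of a comparison being cells of 1 library. The labels do not say that libraries came from separate cultures. Intervals for shares are exact Clopper-Pearson, those for levels and ratios exact Poisson, at 95%, and cover counting error only. A level of 0 was bounded by 3 UMIs over the group, set against the UMIs expected there at the other side's level in each library, and ratios over 1 to 3 UMIs were taken the same way. The counting error of the other side's level is not part of these bounds and ratios. To compare shares of cells with a UMI, cells were thinned to 200 UMIs. The tests were checked on simulated counts. Apart from the changed genes, these gave each gene the same share in every library, with 1 common dispersion. Differences of a gene between libraries were thus not modelled, and the recovery in real libraries can differ. False calls numbered 3 against other neurons, 1 against URX and 6 against RIC. No doublet caller was run. Alternatives, among them DESeq2 1.42.0, are given in the closing section.

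The members and the gene lists were chosen with earlier results of these data known. The genes named were the markers and transmitter lists; against other neurons the 15 called higher with the largest fold and at least 1 UMI in each library, the 10 called lower with the smallest p, and up to 4 called genes a direction in each list; against a class the 8 with the smallest p a direction and called peptide, homeobox and transmitter genes; and the 5 most like flp-8. From these the text describes a part.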

Additional observations from a re-analysis of the deposited data

Results flagged for a closer look

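For 5 named genes AUA cells of the eat-4 sort stood on the other side of other neurons from AUA cells of both pan-neuronal replicates, on the scale of log2 of the ratio of CPM plus 10. The difference between the libraries was not tested for any of them. The cilium-related gene dyf-7 stood at -1.3 in the eat-4 sort and at 2.42 and 1.84 in the pan-neuronal replicates. The GABA receptor gene unc-49 stood at 0.0675, against -3.9 and -1.42. The peptide receptor gene frpr-8 stood at -0.257, against 2.44 and 1.81. The peptide gene nlp-18 stood at -0.0156, against 0.887 and 0.412. The peptide gene flp-11 stood at 2.47, against -2.75 and -2.9.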

How the results depend on the processing

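Against other neurons 346 genes were higher in AUA. The number was 222 with DESeq2, 227 with classes weighted equally, 151 with libraries of at least 5 AUA cells and 191 among cells with at least 500 UMIs, and it lay between 199 and 384 with a library left out. The 1240 lower genes became 699 among cells with at least 500 UMIs and 619 with equal classes, and between 861 and 1473 with a library left out. Against glutamatergic classes 3 named genes changed sign, unc-25 (0.1153, adjusted p = 0.9139), Y43C5A.7 (0.07366, adjusted p = 0.8499) and nlp-64 (1.077, adjusted p = 0.05508). The AUA share of neurons among cells with at least 500 UMIs was 2.539%, 6.994% and 2.8%.

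Against URX, with 54 higher and 68 lower, no filter left 1 higher and 4 lower, cells with at least 500 UMIs gave 32 higher, and libraries with either class, unpaired, an alternative chosen after seeing the data, gave 212 and 332. With a library left out the counts lay between 34 and 49 and between 42 and 58. Requiring 10 or 20 URX cells left too few libraries for a fit. Against RIC, with 215 higher and 201 lower, libraries of at least 5 cells gave 28 and 67, cells with at least 500 UMIs gave 125 higher, and no filter gave 421 lower. The causes of these shifts were not tested.

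Without the library as replicate block the counts were 212 higher and 936 lower against other neurons, 70 and 76 against URX and 165 and 163 against RIC. Leaving unc-54 and rol-6 out, chosen after seeing the data, gave 350 and 1226 against other neurons. Over the named called genes and all alternatives, the call was lost, with or without a change of sign, in 167 of 2801 cases against other neurons, 80 of 519 against URX and 15 of 848 against RIC. In the URX comparison the pan-neuronal URX cells held 2998 and 8651 UMIs and the AUA cells of the unc-86 sort 7410.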

Other observations

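In the 45 AUA cells of the other libraries several genes stood on the other side of other neurons from the 3 main libraries. The tyramine synthesis gene tdc-1 had 1058 CPM against 99.2 in other neurons of those libraries, and the monoamine transporter gene cat-1 had 211 against 37.1, where both were lower in AUA in the main libraries. The receptor gene npr-1 had 0 against 28.4. These values were picked after they were seen, come from 44124 UMIs in all, and were not tested.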
